A study of Homo sapiens with 15 samples.

Results

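The expression of 9 genes that restrain the cell cycle was examined in LNCaP cells, an androgen-sensitive human prostate cancer line, among 17272 genes with a deposited value. The genes were taken by symbol and not by a cut on their values, but the choice was made with earlier results of these data known. They comprise the CDK inhibitor genes CDKN1A, CDKN1B, CDKN1C, CDKN2C and CDKN2D, the CDK phosphatase gene CDKN3, and the pocket protein genes RB1, RBL1 and RBL2. All 9 had a row in the table and passed the filter on low values. All cells were starved of androgen for 2 days in medium with charcoal-stripped serum and collected after 22 h of treatment. In 10 libraries the cells received 1 nM R1881, a synthetic androgen, with DMSO (named R1881 here), and in 5 libraries they received 1 nM R1881 with 2 µM enzalutamide, an inhibitor of androgen signalling (R1881 + enzalutamide). No library of androgen-starved cells without R1881 was analysed here, and a single cell line was used.

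Progress from G1 into S phase is driven by cyclin-dependent kinases (CDKs), which phosphorylate the pocket proteins and so release the E2F transcription factors that these hold. CDK inhibitors of the INK4 family bind CDK4 and CDK6, whereas those of the CIP/KIP family bind a broader range of cyclin-CDK complexes. RB1 mainly restrains the activating E2F factors. RBL1 (p107) and RBL2 (p130) join repressor E2F factors and the MuvB proteins in the DREAM complex, which silences cell cycle genes, with RBL2 prevalent in resting cells and RBL1 itself an E2F target in dividing cells. In androgen-sensitive prostate cancer cells, androgen supports proliferation.

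These genes differed between the treatments in different directions. RBL2, CDKN1A and CDKN1B were higher with enzalutamide, CDKN3, CDKN2C, CDKN2D and RBL1 were lower, and neither RB1 nor CDKN1C passed the test. With limma and a threshold of 0.05 on the adjusted p, 7 of the 9 genes passed the test, 3 higher and 4 lower, against a background in which 62.5% of the 17046 genes tested passed it, 29.8% higher and 32.7% lower. In 6 genes, 3 higher and 3 lower, the values of the 2 treatments did not overlap, as was the case in 37.2% of all genes tested (17.1% higher and 20.1% lower). With so many genes called in general, these counts say little about the group, and the description concerns which genes moved and by how much.

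The gene counts of a library added up to 15830745 to 24316740 reads with R1881 and 21188661 to 25416052 reads with R1881 + enzalutamide. Values are given as deposited, in CPM (reads per 1000000 reads, with library sizes rescaled by the authors). The treatment was checked on KLK3, the gene of prostate-specific antigen and a classical androgen target, which was at 1588 ± 209 CPM with R1881 (SD, n = 10) and fell to 134 ± 7.66 CPM with enzalutamide (SD, n = 5). The markers of luminal prostate cells FOLH1 and HOXB13 were also present, whereas 5 of 7 markers of other cell types (PTPRC, COL1A2, PECAM1, KRT5 and TP63) had no row, and the other 2, COL1A1 and VWF, were both higher with enzalutamide, with a summed level of 7.06 to 10.8 CPM with R1881 and 10.3 to 15.6 CPM with R1881 + enzalutamide. In the labels, libraries 51 to 55 and libraries 71 to 75 are R1881 and libraries 81 to 85 are R1881 + enzalutamide, and what these numbers stand for is not said. A difference between these series and an effect of the treatment cannot be told apart. Each R1881 series was also used alone, which shows how far a result depends on the R1881 libraries chosen. It cannot separate treatment from series, since libraries 81 to 85 hold no R1881 library. With library totals set to 1000000 in place of the deposited scaling, 6641 genes were higher and 4288 lower, against 5083 and 5577 as deposited.

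Promoter windows were read from RefSeq (GRCh38.p14, 250 bases before to 50 bases after the start) for 8 of the 9 genes; CDKN1C was not found. The stretches outside annotated untranslated regions are shown for the lower genes RBL1, CDKN2D and CDKN3 and for RBL2, the gene with the highest fold change. That of CDKN2C, which was also lower, is not shown. Capitals mark matches, on either strand, to TTTNNCGC (an E2F-type element) and TTTGAA (the cell cycle homology region bound by MuvB).
RBL1 promoter, chr20:37095998-37096247, minus strand: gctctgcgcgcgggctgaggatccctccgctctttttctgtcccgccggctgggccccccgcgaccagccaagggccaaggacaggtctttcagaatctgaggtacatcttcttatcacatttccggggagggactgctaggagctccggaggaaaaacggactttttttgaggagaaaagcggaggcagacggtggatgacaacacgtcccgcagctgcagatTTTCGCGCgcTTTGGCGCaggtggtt
CDKN2D promoter, chr19:10569060-10569229, minus strand: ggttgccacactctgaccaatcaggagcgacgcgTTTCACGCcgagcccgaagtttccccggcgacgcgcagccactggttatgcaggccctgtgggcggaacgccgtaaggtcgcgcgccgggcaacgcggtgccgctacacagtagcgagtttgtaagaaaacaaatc
CDKN3 promoter, chr14:54396757-54396978, plus strand: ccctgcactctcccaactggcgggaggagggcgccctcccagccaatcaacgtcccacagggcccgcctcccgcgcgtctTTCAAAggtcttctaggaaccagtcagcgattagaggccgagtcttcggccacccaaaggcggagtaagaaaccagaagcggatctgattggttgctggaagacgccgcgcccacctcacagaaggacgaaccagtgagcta
RBL2 promoter, chr16:53434277-53434470, plus strand: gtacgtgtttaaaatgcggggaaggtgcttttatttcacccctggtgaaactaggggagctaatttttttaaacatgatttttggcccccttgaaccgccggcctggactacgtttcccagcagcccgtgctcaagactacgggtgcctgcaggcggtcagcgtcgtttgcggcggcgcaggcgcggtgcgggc

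The RBL1 promoter held 2 matches to TTTNNCGC, TTTCGCGC starting 26 bases and TTTGGCGC starting 16 bases before the start, which do not overlap. The CDKN2D promoter held TTTCACGC 216 bases before its start. This form was added after the sequences had been seen, and 6.86% of 34796 promoter windows in the table hold it. The CDKN3 promoter held TTCAAA, which is TTTGAA read on the opposite strand, 170 bases before the start, and 15.2% of windows hold TTTGAA on either strand. The RBL2 stretch shown held none of these, although TTTGAA occurred 25 bases after the start, outside it. The window at the main start of the lower gene CDKN2C held no match to TTTNNCGC or TTTGAA either, and nor did those of CDKN1A and CDKN1B. Matches were thus not found at the main start of every lower gene. The E2F core GCGGGAA (6.56% of windows) and the other form of the homology region, TTCGAA (1.45%), were not found at the main start of any of these genes, but 131 bases before another annotated start of CDKN2C the window held GCGGGAA, and 34 bases before that start it held TTCCCGC, the same core on the opposite strand. The GC box GGGCGG, which 44.9% of windows hold, occurred 4 times before the start of CDKN1A and was also present near those of CDKN1B, CDKN2C, CDKN2D and RBL2. The hexamer AGAACA of the androgen response element (14.8% of windows) was found, on the opposite strand, 212 bases before the start of RBL2, outside the stretch shown. The RB1 window in the table lies 172699 bases from the main start of the gene and was not used. A match is a run of letters and not evidence of binding.

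Among the CIP/KIP inhibitors, CDKN1A and CDKN1B were higher with enzalutamide, CDKN1A by more than CDKN1B. CDKN1A (chromosome 6, 36676460 to 36687337, GRCh38) encodes p21, which inhibits CDK2 complexes. Its expression with R1881 ranged from 80.4 to 93.0 CPM with a median of 87.4, and the 5 libraries with enzalutamide (81 to 85, in that order) gave 110, 109, 130, 118 and 110 CPM. Every library with enzalutamide lay above every R1881 library, and library 83 was the highest. This gave a log2 fold change of 0.40 (SE 0.046, adjusted p = 1.32e-07 from limma), and it was 0.36 without library 83. CDKN1A shares 146 exon bases with the non-coding gene DINOL on the opposite strand.

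CDKN1B (chromosome 12, 12685498 to 12722369) encodes p27, which holds CDK2 inactive in resting cells. It ranged from 44.9 to 49.2 CPM with R1881 (median 48.3) and gave 56.1, 53.2, 49.4, 54.7 and 54.3 CPM in libraries 81 to 85. Its groups were separated by a narrow margin, since library 83 at 49.4 CPM lay next to the highest R1881 library at 49.2 CPM. CDKN1B had a log2 fold change of 0.17 (SE 0.038, adjusted p = 0.000805 from limma), which became 0.26 with library totals set to 1000000. CDKN1C (chromosome 11, 2883213 to 2885775), which encodes the imprinted inhibitor p57, was the least expressed of the 9 genes, with 16 to 32 reads per library. It ranged from 0.800 to 1.41 CPM with R1881 (median 1.07) and gave 0.955, 0.977, 0.977, 1.06 and 0.764 CPM with enzalutamide. The groups overlapped, and the log2 fold change of -0.12 had a 95% interval from -0.32 to 0.073 (adjusted p = 0.263 from limma), so that a change was not detectable at this depth.

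**Figure D1:**
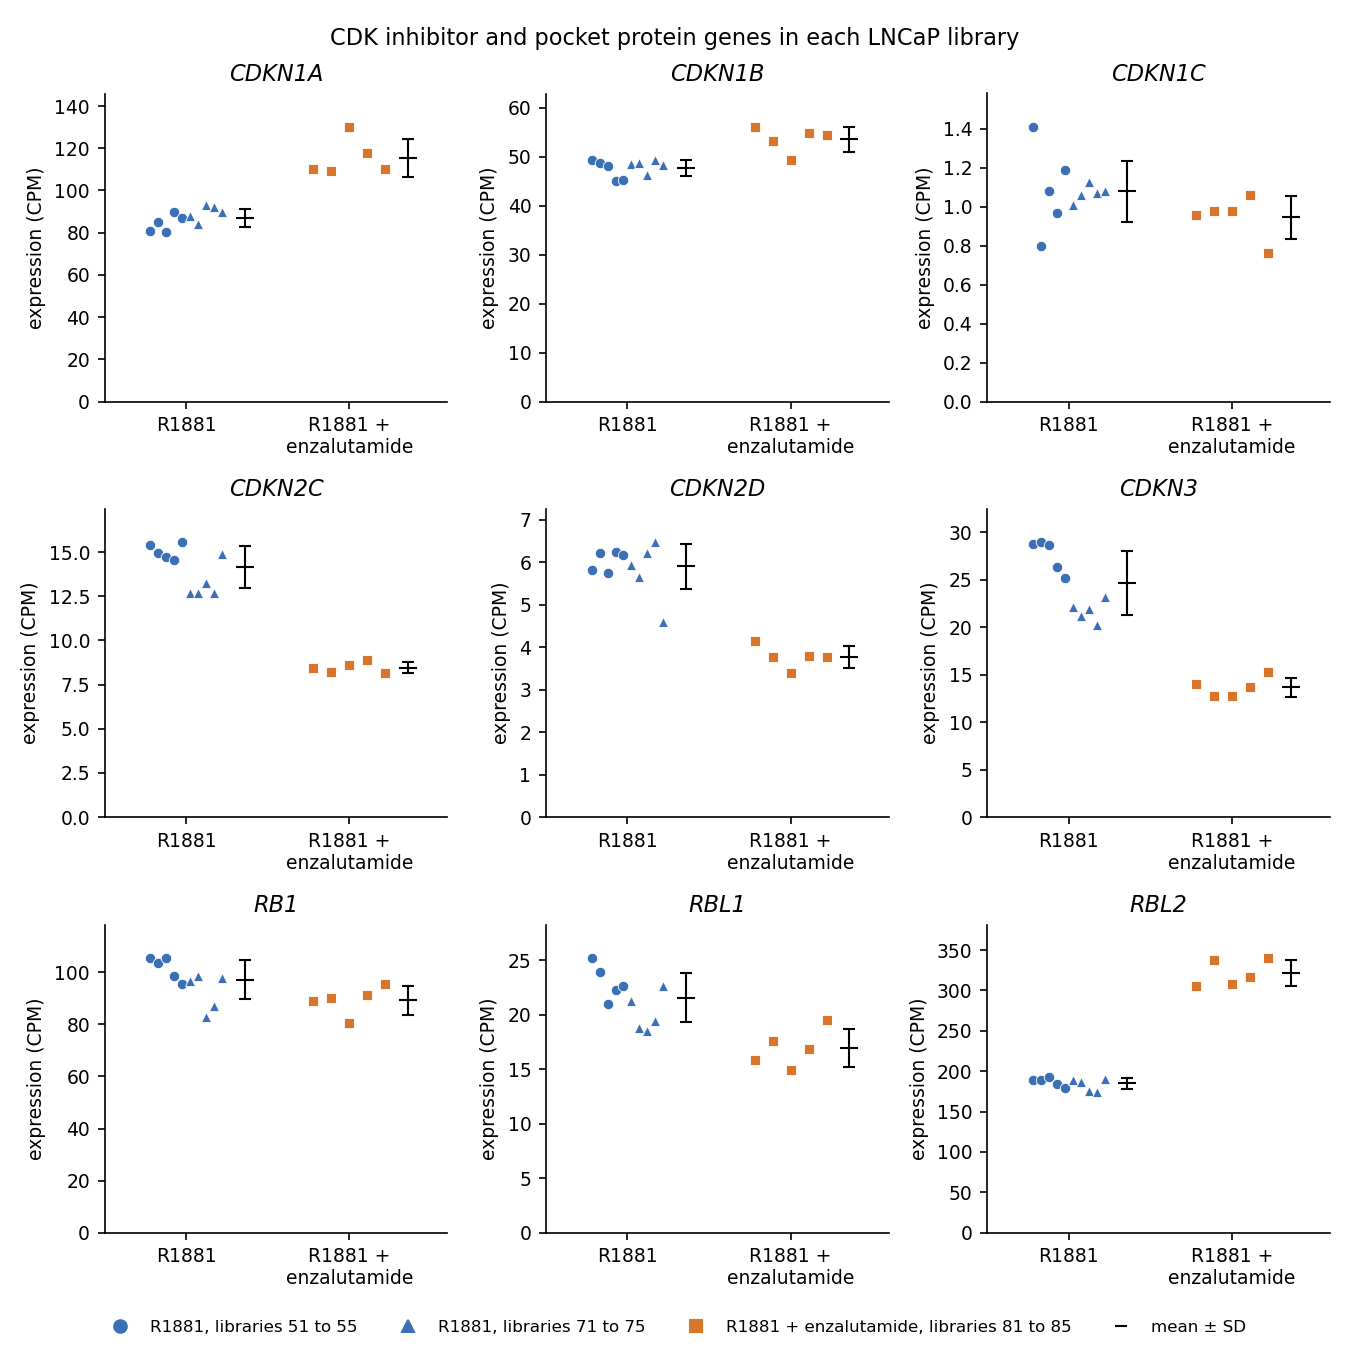
Expression (CPM, linear axes from 0) of the 9 genes in each library, with circles for R1881 libraries 51 to 55, triangles for R1881 libraries 71 to 75 and squares for R1881 + enzalutamide libraries 81 to 85, and black bars for the mean ± SD of 10 and 5 libraries. RBL2, CDKN1A and CDKN1B lie higher and CDKN2C, CDKN2D and CDKN3 lower with enzalutamide without overlap, whereas the groups overlap for RBL1, RB1 and CDKN1C.

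The INK4 genes divided. CDKN2C and CDKN2D, which encode p18 and p19 and are known to oscillate in dividing cells, were lower with enzalutamide. CDKN2C (chromosome 1, 50960745 to 50974634) ranged from 12.7 to 15.6 CPM with R1881 (median 14.6) and gave 8.41, 8.24, 8.61, 8.90 and 8.17 CPM in libraries 81 to 85. All 5 libraries with enzalutamide lay well below the lowest R1881 library, and the median fell by 42.6%. The log2 fold change was -0.70 (SE 0.062, adjusted p = 3.50e-09 from limma). CDKN2C shares 617 exon bases with a non-coding gene on the opposite strand.

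CDKN2D (chromosome 19, 10566460 to 10569059) ranged from 4.60 to 6.48 CPM with R1881 (median 6.05) and gave 4.14, 3.77, 3.40, 3.80 and 3.77 CPM with enzalutamide. Its groups did not overlap, and the lowest R1881 library, 75, was also the shallowest of all. The log2 fold change was -0.58 (SE 0.076, adjusted p = 1.03e-06 from limma). The other INK4 genes, CDKN2A and CDKN2B, which encode p16 and p15 and lie side by side on chromosome 9, were higher. CDKN2A ranged from 5.47 to 7.16 CPM with R1881 (median 6.09) and gave 8.92, 7.63, 7.58, 7.92 and 7.50 CPM with enzalutamide, without overlap (log2 fold change 0.33, SE 0.068, adjusted p = 0.000292 from limma). CDKN2A also encodes p14ARF from another first exon, and the values do not tell the transcripts apart. CDKN2B, at 2.37 ± 0.239 CPM (SD, n = 10) against 2.91 ± 0.340 CPM (SD, n = 5), overlapped between the treatments (log2 fold change 0.25, adjusted p = 0.0158 from limma) and did not pass the test against R1881 libraries 51 to 55 alone (adjusted p = 0.117) or without library 82 (adjusted p = 0.0617).

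CDKN3 had the lowest fold change of the 9 genes. It encodes a phosphatase that removes the activating phosphate of CDK2, and its transcript is known to peak late in the cell cycle. CDKN3 (chromosome 14, 54396849 to 54420218) ranged from 20.2 to 29.0 CPM with R1881 (median 24.2) and gave 14.0, 12.8, 12.7, 13.7 and 15.2 CPM with enzalutamide. The treatments did not overlap, and the median fell by 43.4%. The log2 fold change was -0.82 (SE 0.084, adjusted p = 3.41e-08 from limma). The R1881 libraries themselves fell into the numbered series, with 28.7, 29.0, 28.7, 26.3 and 25.2 CPM in libraries 51 to 55 and 22.1, 21.2, 21.9, 20.2 and 23.2 CPM in libraries 71 to 75. CDKN3 was the only one of the 9 genes whose 2 series did not overlap, which held for 6.67% of all genes tested, 4.76% in the direction of CDKN3 (higher in 51 to 55). Against libraries 51 to 55 alone the log2 fold change was -0.99, and against libraries 71 to 75 alone it was -0.65 (adjusted p = 1.25e-10 and 5.41e-07 from limma).

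Markers of cycling cells moved with these results. All 43 S phase genes of the Seurat list were tested, of which 41 were lower with enzalutamide and none was higher, and of 52 G2/M genes 51 were lower and 1 was higher. The summed S phase level was 2823 to 2986 CPM in libraries 51 to 55, 2493 to 2700 CPM in libraries 71 to 75 and 1353 to 1512 CPM with enzalutamide. The summed G2/M level was 3832 to 4049 CPM, 3349 to 3615 CPM and 2159 to 2377 CPM in the same order. The 2 R1881 series thus differed in the same direction as CDKN3, by less than the treatments did. Their part in the differences of CDKN3, CDKN2C, CDKN2D and RBL1 was not tested, and in bulk RNA fewer cells in a phase and less RNA per cell cannot be told apart.

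The genes whose pattern over the 15 libraries was most like that of CDKN3 were sought among 12163 genes with a mean of at least 5 CPM, by the root-mean-square difference of centred log2(CPM + 0.5). They were NCAPG2 (0.0638), KNTC1 (0.0642) and MAD2L1 (0.0644), a condensin subunit gene and 2 spindle checkpoint genes, with log2 fold changes of -0.83, -0.78 and -0.80. For RBL2 they were KDM6A (0.0369), which encodes a histone demethylase, AKTIP (0.0385) and PRKAA1 (0.0403), which encodes a subunit of AMP-activated kinase, with log2 fold changes of 0.84, 0.82 and 0.76. When 1 minus Pearson's correlation was used in place of this measure, the genes nearest to CDKN3 were CKAP2, KNTC1 and MAD2L1, and those nearest to RBL2 were TP53INP1, BARD1 and SERINC3.

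Each pocket protein gene behaved differently: RBL2 was higher, RBL1 was lower, and RB1 did not pass the test. RBL2 (chromosome 16, 53433977 to 53491648) was the gene with the highest fold change of the 9. It ranged from 174 to 192 CPM with R1881 (median 188) and gave 306, 338, 308, 316 and 341 CPM in libraries 81 to 85. The R1881 libraries lay close together, with no overlap with the libraries with enzalutamide, and the median was 68.7% higher. The log2 fold change was 0.80 (SE 0.035, adjusted p = 2.64e-14 from limma), and it was 0.78 against libraries 51 to 55 and 0.81 against libraries 71 to 75. RBL2 shares 609 exon bases with AKTIP, a gene on the opposite strand that acts in vesicle trafficking, and 721 with an unconfirmed transcript on that strand. AKTIP ranged from 80.0 to 90.0 CPM with R1881 and from 142 to 155 CPM with enzalutamide (log2 fold change 0.82, SE 0.035). The strand setting of the counting was not stated, and the part of shared exons in either difference was not tested.

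RBL1 (chromosome 20, 36996349 to 37095997) ranged from 18.5 to 25.3 CPM with R1881 (median 21.8) and gave 15.9, 17.6, 14.9, 16.9 and 19.5 CPM with enzalutamide. Library 85 with enzalutamide lay within the R1881 range, and the other 4 lay below it. The log2 fold change was -0.34 (SE 0.074, adjusted p = 0.000464 from limma), and it was -0.43 against libraries 51 to 55 and -0.24 against libraries 71 to 75. RBL1 shares 213 exon bases with a non-coding gene on the opposite strand. RB1 (chromosome 13, 48303744 to 48599436), the retinoblastoma gene, ranged from 82.9 to 106 CPM with R1881 (median 98.1) and gave 89.1, 90.3, 80.4, 91.4 and 95.4 CPM with enzalutamide. Its groups overlapped, and the log2 fold change was -0.12 (SE 0.054, adjusted p = 0.0587 from limma), with an exact permutation p of 0.0643 (two-sided, 3003 regroupings). The call was sensitive to the libraries used. RB1 passed the test against libraries 51 to 55 alone (log2 fold change -0.19, adjusted p = 0.00192 from limma) but not against libraries 71 to 75 alone (-0.051, adjusted p = 0.472) or with library totals set to 1000000 (-0.027, adjusted p = 0.657), and it also passed without library 73 (adjusted p = 0.00836), 74 (0.0271) or 85 (0.0391), or with the trend on GC content removed (5.27e-05).

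**Figure D2:**
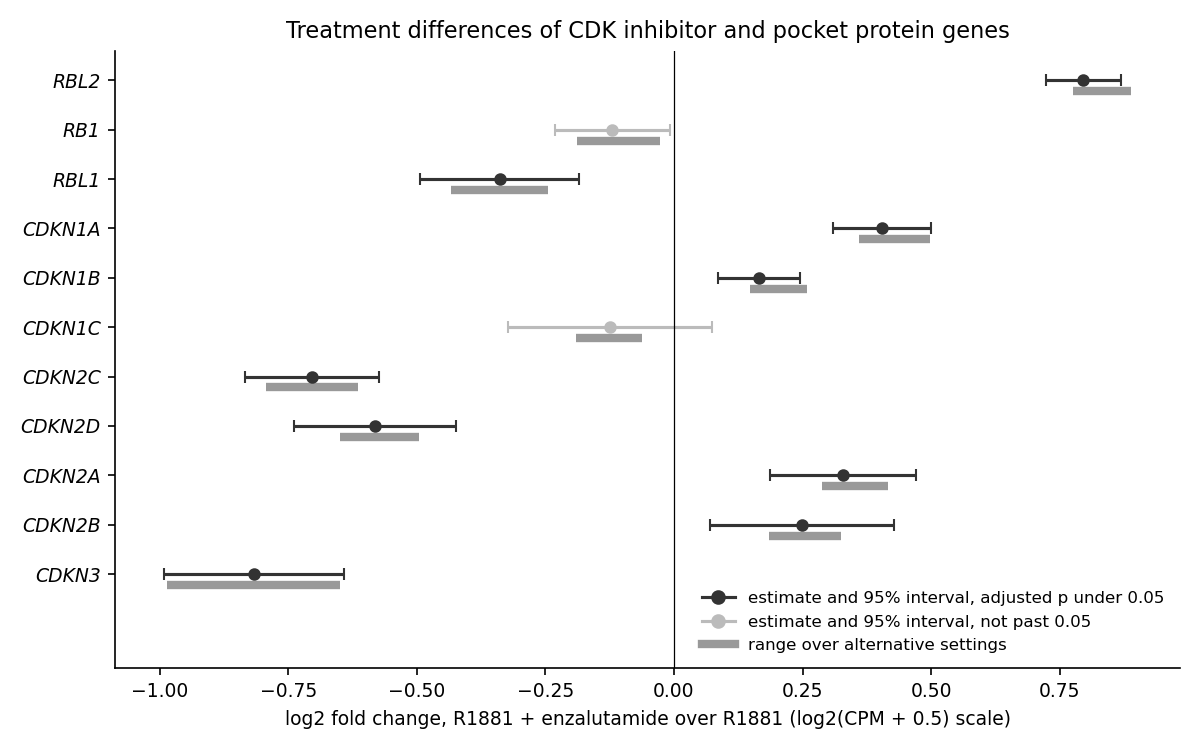
Log2 fold change (R1881 + enzalutamide over R1881, log2(CPM + 0.5) scale) of the 9 genes and of CDKN2A and CDKN2B, with points and thin lines for the estimate and its 95% interval, dark where the adjusted p was under 0.05, and thick bars for the range over the alternative settings and left-out libraries. RBL2 is highest at 0.80 and CDKN3 lowest at -0.82, and no thick bar crosses 0.

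In the exact permutation test over the libraries, RBL2, CDKN1A, CDKN1B, CDKN2C, CDKN2D and CDKN3 each gave p = 0.000333, the smallest that 3003 regroupings of the 15 libraries allow, and RBL1 gave p = 0.00167 (two-sided, exact). CDKN1C gave p = 0.119 (exact). The study calls the libraries biological replicates, but whether they came from separate cultures is not stated, so that these p-values measure the spread between libraries.

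Ratios within a library do not depend on its scaling, and 4 ratios of related genes were compared. The log2 ratio of RBL1 to RBL2 was -3.28 to -2.88 with R1881 and -4.32 to -4.09 with enzalutamide, a difference of -1.14 (two-sided exact permutation test, p = 0.000333, adjusted over 4 ratios 0.000666). The ratio of RB1 to RBL2 was -1.08 to -0.84 with R1881 and -1.93 to -1.77 with enzalutamide, a difference of -0.92 (exact p = 0.000333, adjusted 0.000666). Neither ratio overlapped between the treatments, so the balance of pocket protein transcripts had shifted towards RBL2 in all 5 libraries with enzalutamide.

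The log2 ratio of CDKN1A to CDKN1B was 0.86 ± 0.10 with R1881 (SD, n = 10) and 1.10 ± 0.17 with enzalutamide (SD, n = 5), a difference of 0.24 (exact p = 0.00167, adjusted 0.00222). Its groups overlapped, and library 83 was the highest at 1.39. The log2 ratio of CDKN2C to CDKN2D was 1.19 ± 0.19 with R1881 (SD, n = 10) and 1.07 ± 0.11 with enzalutamide (SD, n = 5), and the difference of -0.12 did not exceed the spread between libraries (exact p = 0.211, adjusted 0.211). CDKN2C and CDKN2D were thus not shown to differ in their response, although against libraries 51 to 55 alone the difference was -0.18 (exact p = 0.0238).

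**Figure D3:**
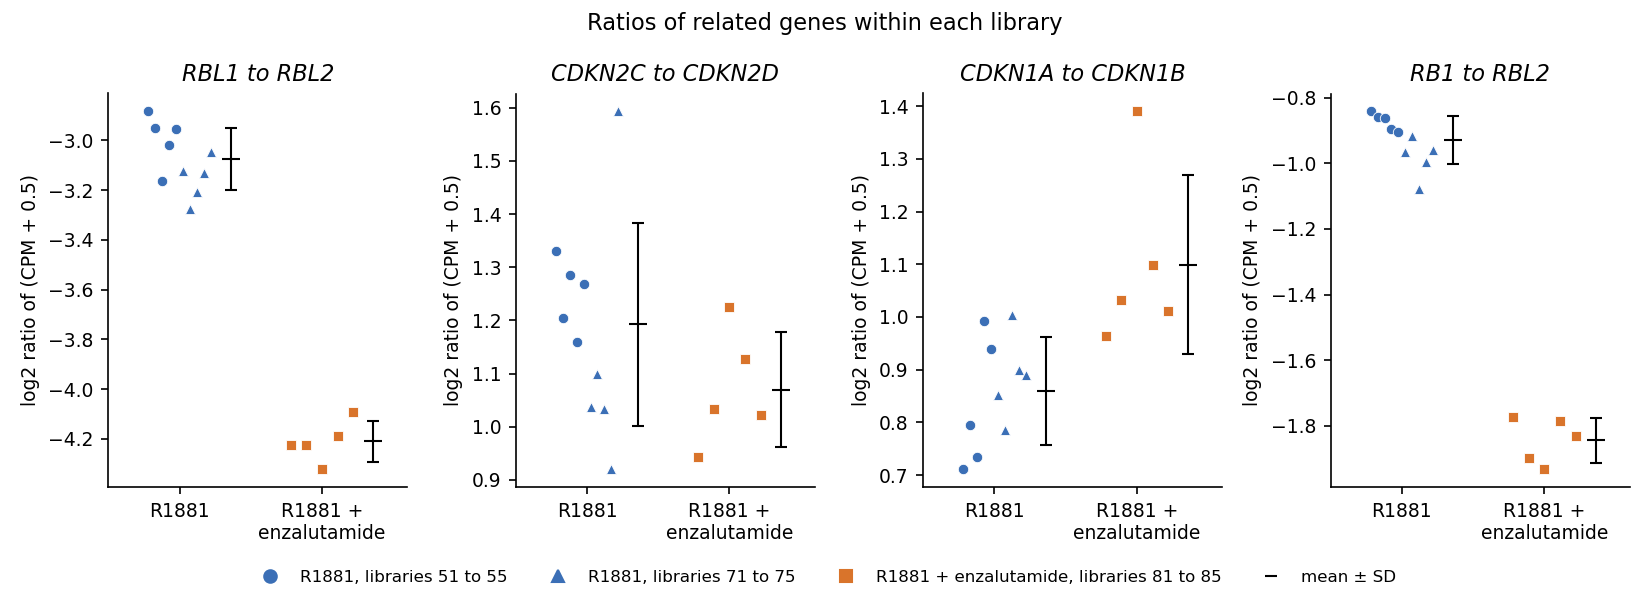
Log2 ratio of (CPM + 0.5) of 4 pairs of related genes in each library, with symbols as for the plot of expression by library and black bars for the mean ± SD of 10 and 5 libraries (the axes do not start at 0). Both ratios to RBL2 fall without overlap, from -3.28 to -2.88 down to -4.32 to -4.09 for RBL1 and from -1.08 to -0.84 down to -1.93 to -1.77 for RB1.

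Levels of different genes were set side by side per kilobase of merged exons. The exons of all annotated transcripts of a gene were merged, from 1505 bases for CDKN2D to 9255 bases for CDKN1B. Exons not used in these cells make a level too low, so the order of genes and the family shares depend on these lengths. Which transcripts were used was not tested. With R1881 the order was CDKN1A (29.1 ± 1.47 CPM per kilobase, SD, n = 10), RBL2 (22.8 ± 0.810), RB1 (15.1 ± 1.16), CDKN3 (13.5 ± 1.85), CDKN1B (5.15 ± 0.176), CDKN2C (4.69 ± 0.390), CDKN2D (3.93 ± 0.350), RBL1 (3.63 ± 0.371) and CDKN1C (0.435 ± 0.0631). The ranges of RB1 and CDKN3 overlapped, as did those of each neighbouring pair from CDKN1B to RBL1. With enzalutamide RBL2 (39.7 ± 2.03 CPM per kilobase, SD, n = 5) and CDKN1A (38.5 ± 3.0) overlapped at the head of the order, and RB1 (13.9 ± 0.857) and CDKN3 (7.48 ± 0.555) no longer overlapped. RBL1 (2.85 ± 0.295), CDKN2C (2.81 ± 0.0976) and CDKN2D (2.51 ± 0.175) overlapped in turn, and CDKN1C (0.382 ± 0.0442) stayed last.

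Within the pocket protein family, RBL2 made up 54.9% ± 1.31 of the summed level per kilobase with R1881 (SD, n = 10) and 70.4% ± 0.957 with enzalutamide (SD, n = 5). The share of RB1 went from 36.3% to 24.6% and that of RBL1 from 8.72% to 5.04%. The summed level was 41.5 ± 2.16 and 56.4 ± 2.97 CPM per kilobase, so that the family as a whole was higher with enzalutamide. The sum of the 3 CIP/KIP genes was 34.6 ± 1.40 and 44.7 ± 2.80 CPM per kilobase, of which CDKN1A made up 83.8% and 86.1%. That share rests on the merged length of CDKN1B, the longest of the 9 genes. The sum of the 4 INK4 genes, CDKN2A and CDKN2B included, was 10.8 ± 0.483 and 8.08 ± 0.341 CPM per kilobase, and the share of CDKN2A within it was 14.8% and 25.2%.

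**Figure D4:**
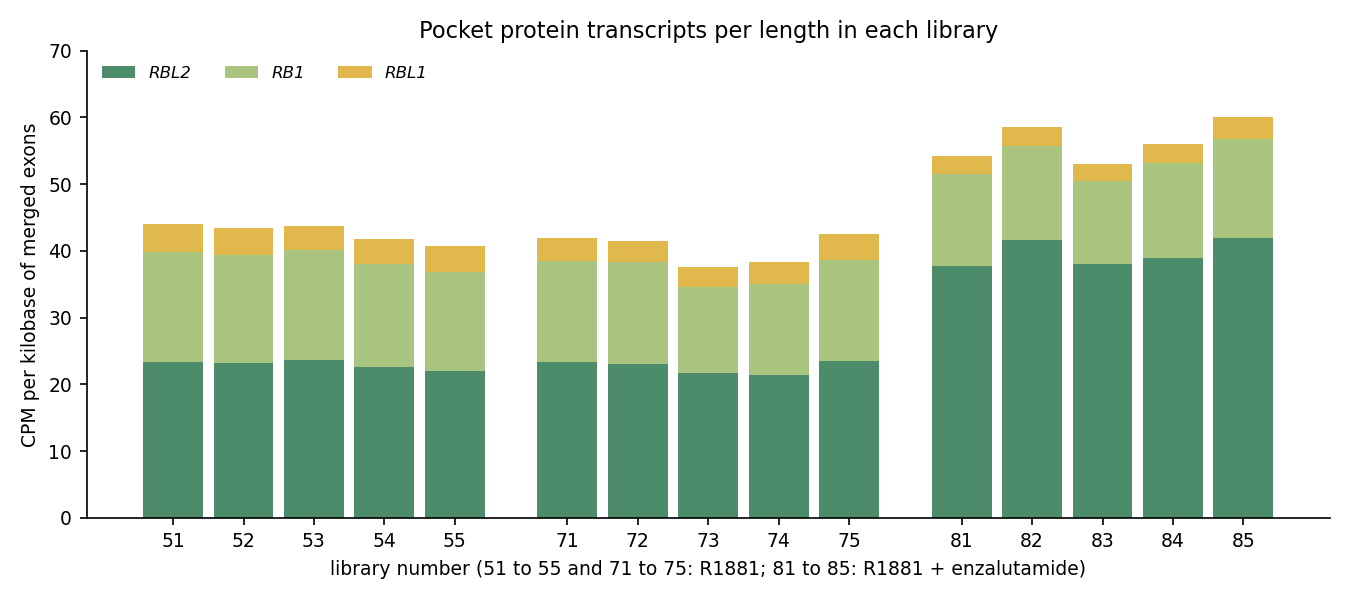
CPM per kilobase of merged exons of RBL2, RB1 and RBL1, stacked, in each of the 15 libraries (51 to 55 and 71 to 75 with R1881, 81 to 85 with R1881 + enzalutamide). The stacks reach 41.5 ± 2.16 with R1881 and 56.4 ± 2.97 with enzalutamide (mean ± SD), and of the 3 segments that of RBL2 is the one taller on average with enzalutamide.

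The genes around these inhibitors were described by lists, beside a median log2 fold change of -0.01 over all genes tested. Of all genes tested, 62.5% passed the test, 29.8% higher and 32.7% lower. Of 12 cyclin and CDK genes tested, 10 were lower, 1 was higher and 1 did not pass the test (median log2 fold change -0.28). The list holds kinases that the inhibitors act on, their cyclins, and CDK7, CCNH and MNAT1 of the CDK-activating kinase. CDK6, a target of the INK4 proteins, was lowest with a log2 fold change of -1.93 (7.87 against 1.75 CPM), followed by CDK2, the kinase inhibited by p21 and p27, with -1.16 (97.4 against 43.5 CPM). CDK7, of the CDK-activating kinase, was the gene that was higher (0.21). CCND2 and CCNA1 had no row.

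Of the 10 E2F and DP genes, 7 were lower, 1 was higher and 2 did not pass the test (median -0.25). The pocket proteins bind only some of these factors. The repressors E2F7 and E2F8 were lowest (-1.47 and -1.46), and the dimer partner gene TFDP2 was higher (0.23). Of the 8 genes of MuvB and its partners, 6 were lower and none was higher (median -0.34). The lowest were MYBL2 (-1.29) and FOXM1 (-0.69), which join MuvB in cycling cells to activate genes. All 16 E2F target genes examined, which act in replication and nucleotide supply, were lower (median -0.82). RRM2 was at -1.69 and CDC6 at -1.60. Many of the 16, RRM2 and CDC6 included, are also in the S phase list above. CCNE2 and E2F8 are in the S phase list too, and CDK1 is in the G2/M list. The pocket protein gene RBL2 was higher in the same libraries, and any link of RBL2 to the lower E2F targets was not tested.

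Of 14 genes for the turnover of p21 and p27, 8 were lower, 1 was higher and 5 did not pass the test (median -0.29). The share that passed in either direction was close to that over all genes tested (62.5%), with most of them lower. DTL is also in the S phase list above, and CKS1B, CKS2 and CDC20 are in the G2/M list. SKP1, CUL1 and CUL4A were among the genes that did not pass the test. DTL, which directs p21 to degradation, was lowest (log2 fold change -1.26, 37.3 against 15.2 CPM), followed by CKS1B, the cofactor by which SKP2 recognises p27 (-0.96, 27.6 against 14.0 CPM). CUL4B, a scaffold of ubiquitin ligases, was higher (0.23). These are transcript levels, and the proteins were not measured here.

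**Figure D5:**
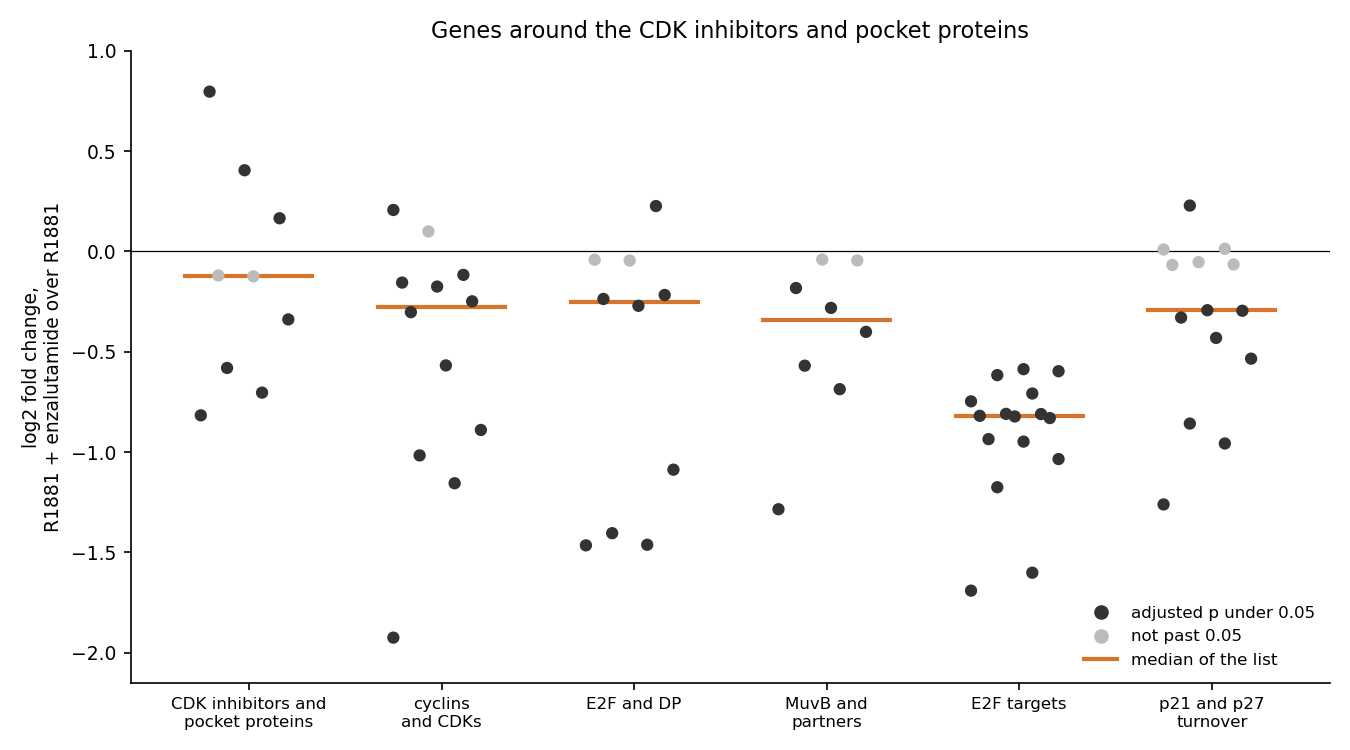
Log2 fold change (R1881 + enzalutamide over R1881) of each gene in 6 lists, dark where the adjusted p was under 0.05, with an orange bar at the median of the list. The E2F targets all lie below 0 (median -0.82), and the CDK inhibitors and pocket proteins spread from -0.82 to 0.80.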

How the data were processed

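Polyadenylated RNA of LNCaP cells was sequenced as single-end reads of 50 bases after stranded library preparation. Mapping by the authors used STAR on GRCh38, and counting used featureCounts of Subread (bcl2fastq 2.17 is also named in the submitters' processing notes). The deposited values are a normalized signal per gene, named CPM in the methods, whose scaling, like the strand setting, annotation, gene filter and other versions, was not given in the sources used here. Library sums ranged from 985580 to 1078567. In every library 100% of values equalled a whole number of reads within 0.01 reads, which recovered 15830745 to 25416052 reads per library. Groups followed the labels; the methods give the replicate numbers the other way round.

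Differences were tested with limma 3.58.1 (R 4.3.3) on log2(CPM + 0.5) with a mean-variance trend, for genes at 0.5 CPM or more on average (all 15 libraries, Benjamini-Hochberg adjustment over 17046 genes, threshold 0.05), so fold changes understate those of low genes. Single values were compared by two-sided exact permutation tests. On the recovered reads, edgeR 4.0.16 (quasi-likelihood) called 5100 genes higher and 5587 lower, and DESeq2 1.42.0 called 5002 and 5536. The limma test was tested on simulated reads. Positions, exons and GC content are from GENCODE v44, whose symbols matched 85.8% of genes. Alternatives covered the pseudocount (0.1 and 1), filter, scaling, test, replicate block, R1881 series, GC trend and each library left out. The genes and lists were chosen with earlier results of these data known. Named genes were the 9 genes, CDKN2A, CDKN2B, KLK3, the 2 highest and 2 lowest called genes of each list, and the 3 genes most like the highest and the lowest gene. AKTIP and the markers were named beyond this rule, after their values were seen. Some genes and a gene list are not reported here.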

Additional observations from a re-analysis of the deposited data

Results flagged for a closer look

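The CPM of CDKN2D in R1881 library 75 (replicate 2), 4.60, stood apart from the other 9 R1881 libraries, the nearest of which was at 5.66 and the highest at 6.48. The gap made up 0.563 of the range of the group, above Dixon's 95% critical value for 10 samples. This was the only such value among 26 sets of gene or ratio values and treatment examined, of which chance gives about 1.3. Library 75 had the fewest reads (15830745) and held 68 reads of CDKN2D.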

How the results depend on the processing

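Under 14 alternatives, and when any single library was omitted, the called genes among the 9 kept their direction and their side of the threshold, with 3 higher throughout and 4 to 5 lower, the fifth being RB1, and no value reversed. RB1 passed with R1881 libraries 51 to 55 alone (-0.19) and with the GC trend removed (-0.13), and it ranged from -0.15 to -0.083 over left-out libraries. CDKN2B missed the threshold with libraries 51 to 55 alone (0.18). The log2 ratio of CDKN2C to CDKN2D passed with those libraries alone (-0.18). The cyclin and CDK list had 2 higher genes in place of 1 with library totals set to 1000000, TMM factors, the title-number block, libraries 71 to 75 alone or the GC trend removed, and 1 to 2 over left-out libraries; the p21 and p27 turnover list had 3 with library totals set to 1000000. The cause was not tested.

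Same-numbered libraries correlated in their deviations between -0.11 and 0.13 for the title numbers. For the last digit of the library number they correlated between -0.64 and 0.84. Differently numbered libraries were not compared, so these values cannot decide whether the replicate numbers pair the libraries. With the title number as a replicate block 4775 genes were higher and 5268 lower, and with the digit as the block 5092 and 5628; neither changed a call of the 9 genes. The block was not run for the ratios with the title numbers. Genes with few reads, such as CDKN1C, are limited by counting error.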
